A study of Canis lupus familiaris with 10 samples.

Results

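The miR-216a, miR-216b and miR-217 cluster comprises 3 of the 320 canine miRNAs counted in the lymph node libraries, and its members were taken by name (cfa-miR-216a, cfa-miR-216b and cfa-miR-217). Small RNA of frozen lymph node tissue was sequenced in 6 dogs with diffuse large B-cell lymphoma (DLBCL) and in 4 healthy dogs, with a library per dog (DLBCL1 to DLBCL6 and Healthy2 to Healthy5). The dogs with DLBCL were hospital patients of both sexes and several breeds. An affected peripheral node was taken from them by surgery under anesthesia, and the tumors expressed B-cell markers (CD79a, Pax5 or CD20) and lacked CD3. The healthy dogs were young purpose-bred female hound crosses that were euthanized in surgical teaching courses. The age of the patients, the body site of the healthy nodes and whether these were taken before or after death are not given in the sources used here. The origin of the dogs (patients or purpose-bred) and any difference in the way of sampling went together with the diagnosis and cannot be told apart from it.

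MicroRNAs are short RNAs that guide the silencing complex to messenger RNAs with a matching site and lower their translation or stability. The genes of miR-216a, miR-216b and miR-217 lie close together in mammalian genomes and can be transcribed as part of a common long transcript. All of them are best known as miRNAs of the acinar cells of the exocrine pancreas. miR-217 is also induced in mouse germinal-center B cells and targets the deacetylase SIRT1 in endothelial cells. RefSeq's annotation of a dog genome (UU_Cfam_GSD_1.0) places the 3 genes one after the other on chromosome 10 in the order MIR217, MIR216A and MIR216B, with 0 other listed genes overlapping the span between them. The nearest protein-coding genes are EFEMP1 on the side of MIR217 and CCDC85A on the side of MIR216B. The authors' reads were mapped to another assembly, CanFam3.1, and the annotation was used only for the order of the genes.

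Between 10686441 and 25784861 reads per DLBCL library and between 30432969 and 34709421 per healthy library were counted on miRNAs. miR-148a alone took 17.8% to 39.0% of these reads in DLBCL and 51.5% to 73.6% in healthy nodes, so that values scaled to the library total and values scaled with edgeR's TMM factors differ between libraries. Expression is given here as CPM, reads scaled to 1000000 reads of the TMM-adjusted library size, unless TPM, the authors' values scaled to 1000000 reads of the library total, is named. The miRNAs of lymphocytes were present in each library. miR-142, which is shared by blood cells, measured 4234 to 7521 CPM in DLBCL and 3382 to 5461 CPM in healthy nodes, and miR-155, a miRNA of activated B cells, measured 3264 to 14698 and 4089 to 7091 CPM. Of the 6 lymphocyte miRNAs listed below, only these 2 had a higher mean in DLBCL. The other 4 (miR-150, miR-146a, miR-181a and miR-342) had a lower one.

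All 3 miRNAs had at least 1 read in each of the 10 libraries. Together they had 30133 to 35473 reads in the healthy libraries, a narrow 0.0988% to 0.115% of all miRNA reads. In DLBCL they had 372 reads in DLBCL3, 840 in DLBCL2, 1303 in DLBCL6, 1494 in DLBCL1, 4450 in DLBCL5 and 18778 in DLBCL4. As a share of the miRNA reads these were 0.00144% in DLBCL3, the lowest, and 0.116% in DLBCL4, the highest, with 0.0202% in DLBCL5 next below it. The cluster was thus as abundant per miRNA read in DLBCL4 as in the healthy nodes, and scarcer in the other 5 DLBCL libraries.

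miR-216b was the member with the most reads in every library. It measured 1508 CPM in Healthy2, 952 in Healthy3, 1176 in Healthy4 and 568 in Healthy5. In DLBCL the lowest value was 16.4 CPM in DLBCL3, the median was 67.2 CPM, and the highest values were 273 CPM in DLBCL5 and 437 CPM in DLBCL4. Every healthy library lay above every DLBCL library, with DLBCL4 at 0.768 times Healthy5, the lowest healthy one. By reads, miR-216b stood between the 34th and the 58th place of the 320 miRNAs in healthy libraries, and between the 68th and the 134th in DLBCL.

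miR-217 followed in the healthy nodes with 390.3 CPM in Healthy2, 284 in Healthy3, 350.3 in Healthy4 and 277 in Healthy5. The DLBCL libraries ranged from 1.04 CPM in DLBCL3 over a median of 10.2 CPM to 180 CPM in DLBCL4. DLBCL4 was alone among them, since the next, DLBCL1, held 14.3 CPM, 12.5 times less. The groups did not overlap, and DLBCL4 reached 55.2% of the healthy mean.

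miR-216a was the scarcest member, at 51.1 CPM in Healthy2, 65.9 in Healthy3, 56.0 in Healthy4 and 68.4 in Healthy5. In DLBCL its median was 3.29 CPM, and DLBCL4 with 46.4 CPM stood 7.34 times above the next library, DLBCL5 with 6.32 CPM. In DLBCL3 it rested on 1 read, so that its level there was close to the limit of detection. The healthy and DLBCL values did not overlap, but DLBCL4 lay just below Healthy2. Reads of different miRNAs are not captured by the library chemistry with equal efficiency, so the order of the members by reads need not be their order by molecules, and how the counting divided reads between the related miR-216a and miR-216b was not tested.

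**Figure D1:**
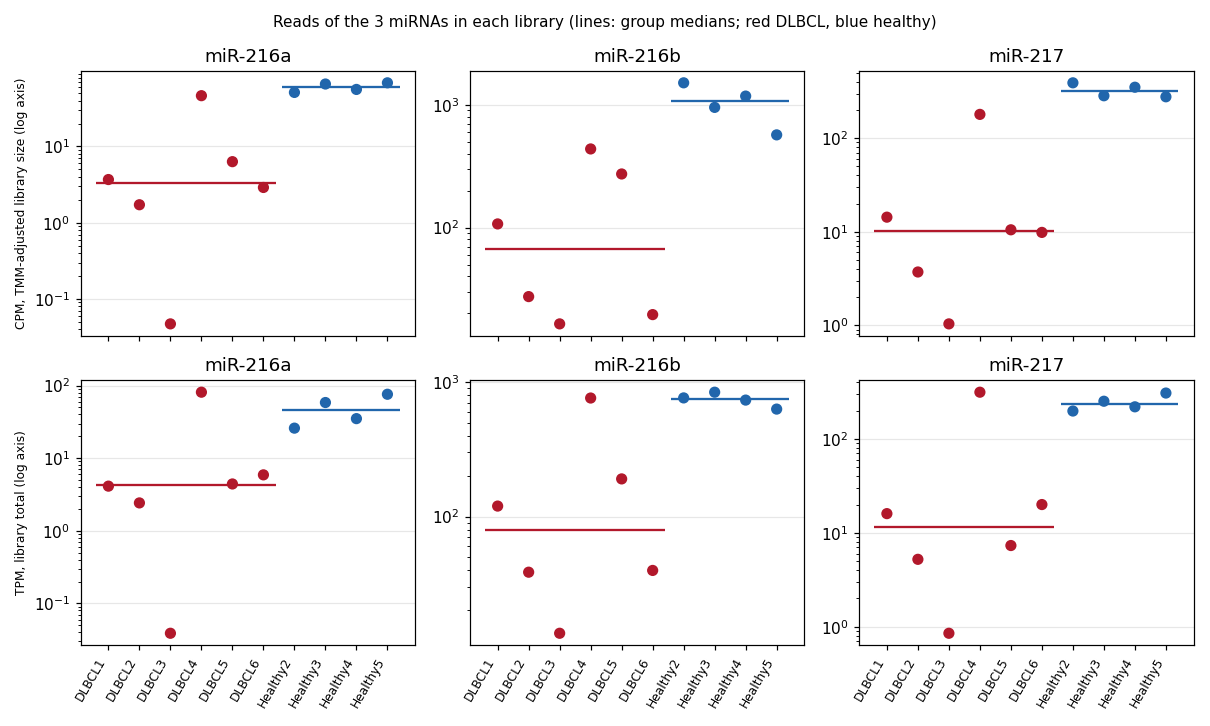
Reads of miR-216a, miR-216b and miR-217 in each of the 10 libraries (points) on log axes, as CPM with TMM-adjusted library sizes (top row) and as the authors' TPM (bottom row), with DLBCL in red, healthy in blue and lines at the group medians. In CPM the healthy libraries lie above all DLBCL libraries for each miRNA, whereas in TPM DLBCL4, at 81.0 TPM of miR-216a, 762 of miR-216b and 314 of miR-217, lies within or above the healthy range.

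For the comparison of DLBCL with healthy nodes, the 247 miRNAs that passed the filter on low counts, all 3 members among them, were fitted together in edgeR with its quasi-likelihood test. A miRNA was called when the Benjamini-Hochberg adjusted p-value was under 0.05 and the fold change over 2. The mean of miR-216b was 147 ± 173 CPM (SD, n = 6) for DLBCL, against 1051 ± 395 CPM (SD, n = 4) for the healthy dogs. On the log2 scale edgeR put this difference at -2.84 with a standard error of 0.87 (adjusted p = 0.0806). For miR-217 the means were 36.5 ± 70.2 CPM (SD, n = 6) and 325 ± 54.5 CPM (SD, n = 4), and edgeR's log2 fold change was -3.16 with a standard error of 1.10 (adjusted p = 0.109). For miR-216a they were 10.2 ± 17.8 CPM (SD, n = 6) and 60.4 ± 8.15 CPM (SD, n = 4), and edgeR's log2 fold change was -2.57 with a standard error of 1.10 (adjusted p = 0.146). None of the 3 was therefore called by edgeR, where 5 of the 247 miRNAs (2.02%) were called lower in DLBCL, 9 (3.64%) higher, and so 14 (5.67%) in either direction. At an unadjusted p-value under 0.05 all 3 were lower, as were 23 of all miRNAs tested (9.31%), and 66 (26.7%) passed in either direction.

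By the size of the fold change, miR-217 stood 2nd, miR-216b 5th and miR-216a 6th from the lowest of the 247 miRNAs, whose median log2 fold change was 0.13. The groups did not overlap in CPM, with DLBCL lower, for these 3 and for 15 of the 247 in all (6.07%). The two-sided exact permutation test of log2 CPM over all 210 arrangements of the group labels gave p = 0.00952 for each of the 3, the smallest p it can give. It compares the group means of a single miRNA and is not adjusted for the 247 tested. Groups that do not overlap always give this p, so it restates the lack of overlap and adds no support to it. Because nodes were sequenced whole, fewer cells that express these miRNAs and less of them per cell cannot be told apart.

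**Figure D2:**
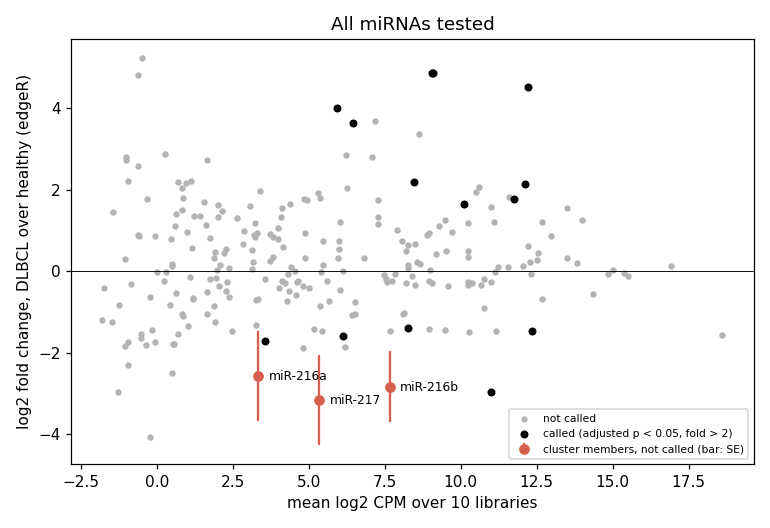
Log2 fold change (DLBCL over healthy, edgeR) against mean log2 CPM over the 10 libraries for the 247 miRNAs tested, with called miRNAs in black and the 3 cluster members in red with their standard errors. The members lie at -3.16, -2.84 and -2.57, among the lowest values of the plot, and their error bars are wide.

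The size of these fold changes depended on DLBCL4. The fit compares group means, and this library alone gave 76.0% of the summed DLBCL CPM of miR-216a, 49.6% of that of miR-216b and 82.0% of that of miR-217. Between medians, the healthy nodes were 18.5 times higher for miR-216a, 15.8 times for miR-216b and 31.2 times for miR-217, against 5.93, 7.17 and 8.92 times between means. Without DLBCL4, edgeR called all 3 members, with 3.69% of the miRNAs tested called lower in DLBCL. The log2 fold changes became -4.36 for miR-216a (adjusted p = 0.0156 from edgeR), -3.55 for miR-216b (adjusted p = 0.0277 from edgeR) and -5.36 for miR-217 (adjusted p = 0.000716 from edgeR). No other single library, DLBCL or healthy, changed the call of a member when it was left out. The values given with all 10 libraries remain the main result, since DLBCL4 carries the same label as the others.

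DLBCL4 was highest among the DLBCL libraries for 51 of the 247 miRNAs (20.6%). The cluster members were near the top of that list. On the log2 CPM scale, DLBCL4 exceeded the median of the other 5 DLBCL libraries by 3.96 for miR-216a, 3.99 for miR-216b and 4.18 for miR-217, which ranked 5th, 4th and 3rd of all miRNAs tested, and the median of this difference over the 247 miRNAs was -0.03. By Dixon's outlier ratio, the gap to the next library over the range, DLBCL4 was not called an outlier in log2 CPM. The ratios were 0.337 for miR-216a, 0.143 for miR-216b and 0.497 for miR-217, below the critical 0.625. At the low end of miR-216a, DLBCL3 had a larger ratio of 0.447, also below it.

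The libraries also differed in Q30, the share of bases with a low estimated error in the study's read statistics. It was higher in DLBCL1, DLBCL2, DLBCL3 and DLBCL5 than in DLBCL4, DLBCL6 and the healthy libraries, so a comparison within a Q30 side could be made only for the lower one. DLBCL4 and DLBCL6 against the 4 healthy libraries gave log2 fold changes of -1.31 for miR-216a, -2.22 for miR-216b and -1.80 for miR-217, with adjusted p-values from edgeR of 0.362, 0.165 and 0.214. None of the 3 was called there, where 6.18% of the miRNAs tested were called lower. These DLBCL libraries differed by more than this between themselves, since DLBCL4 held 16.0, 22.3 and 18.3 times the CPM of DLBCL6. With the Q30 side as a covariate the log2 fold changes were -1.29, -2.20 and -1.78, and none was called.

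Scaling affected how far DLBCL4 lay from the healthy nodes. In TPM, DLBCL4 held 81.0 TPM of miR-216a and 314 TPM of miR-217, above each healthy library (25.9 to 75.9 and 198 to 307 TPM). For miR-216b its 762 TPM lay inside the healthy range of 631 to 842 TPM. The other 5 DLBCL libraries remained below all healthy ones, with at most 5.89 TPM of miR-216a, 191 of miR-216b and 19.99 of miR-217. Scaled to the total, the edgeR log2 fold changes were -1.58, -1.94 and -2.01, while the median over all miRNAs tested moved to 0.82. The groups overlapped for all 3 in TPM, and 0.81% of the 247 miRNAs lay apart with DLBCL lower. The exact permutation test on log2(TPM + 1) gave p = 0.0476 for miR-216a, 0.0286 for miR-216b and 0.0476 for miR-217. With DESeq2's size factors the groups overlapped for none of the 3, as in CPM (6.07% of all). Scaled to all mapped small RNA reads (3.64% of all apart), or to the total without miR-148a (4.05%), DLBCL4 lay inside the healthy range for miR-216a and below it for miR-216b and miR-217. On both of these scales the exact permutation test gave p = 0.0286 for miR-216a.

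The other tools gave the same direction. DESeq2 called miR-216b (log2 fold change -2.88, adjusted p = 0.0087) and miR-217 (-3.15, adjusted p = 0.0171), with 4.1% of the miRNAs that it adjusted called lower, and gave no adjusted p for miR-216a because its filter on outlying counts (Cook's distance) set it aside. Without that filter the same 2 were called (5.3% called lower), and miR-216a had an adjusted p of 0.055 from DESeq2. limma-voom with sample quality weights, which counts deviating libraries less, called all 3, with log2 fold changes of -3.997, -3.80 and -4.72 and 8.1% of all miRNAs called lower. limma on log2(TPM + 1) called miR-216b and miR-217 (1.21% called lower). With at least 10 reads required in every library, edgeR called miR-216b (3.7% called lower) and not miR-217, and miR-216a was not tested. In each of these settings, and in all that left out a library, the 3 log2 fold changes were negative.

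**Figure D3:**
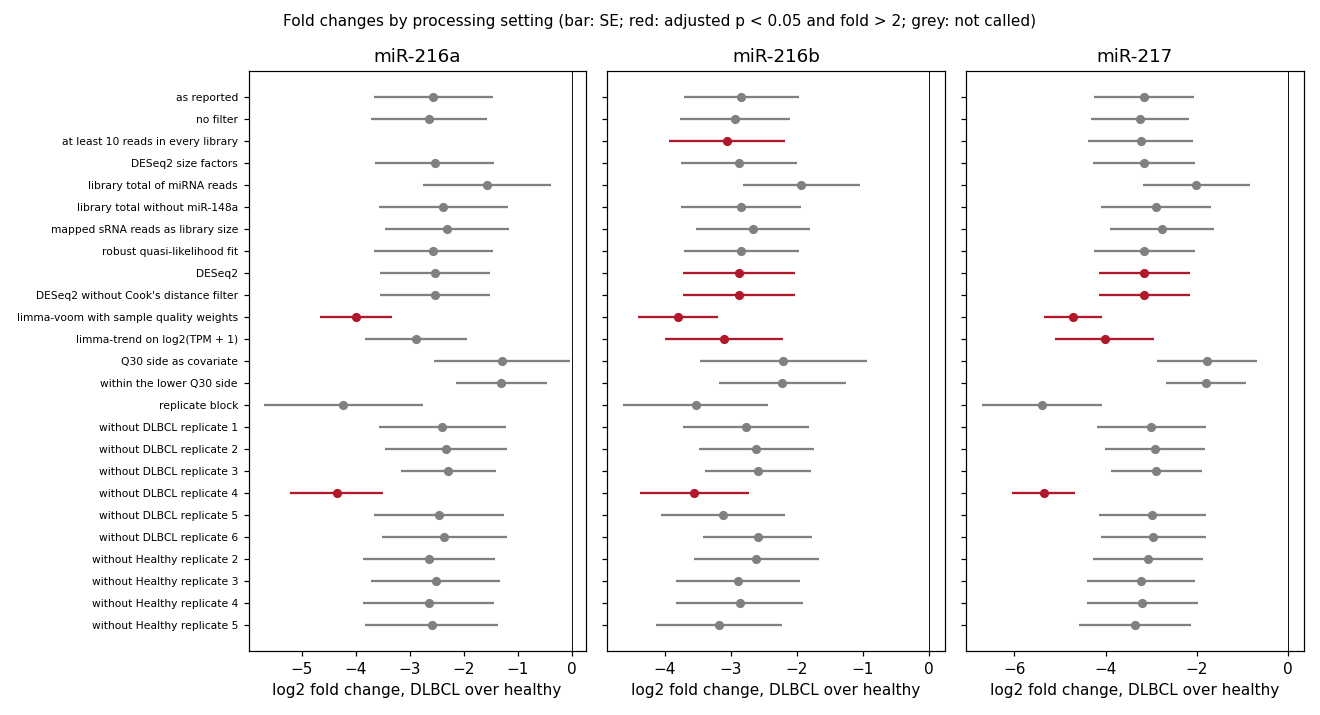
Log2 fold changes (DLBCL over healthy) of miR-216a, miR-216b and miR-217 under each processing setting, with bars for the standard error, red where the adjusted p was under 0.05 and the fold over 2, and grey otherwise. All points lie below 0, and all 3 were called only without DLBCL replicate 4 and by limma-voom. miR-216a has no point where at least 10 reads were required in every library.

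Within DLBCL the members were more uneven than most miRNAs, and within the healthy nodes miR-216a and miR-217 were more even than most in CPM. The SD of log2 CPM over the 6 DLBCL libraries was 2.76 for miR-216a, 2.04 for miR-216b and 2.43 for miR-217, against a median of 1.07 over the 247 miRNAs, and ranked 8th, 22nd and 13th from the highest. The DLBCL value for miR-216a takes in DLBCL3, where 1 read gave a log2 CPM of -2.94, near the floor. Over the 4 healthy libraries the SD was 0.20, 0.60 and 0.24, against a median of 0.54, and ranked 225th, 107th and 214th from the highest, so that miR-216b was close to the middle. Which member was most even in healthy nodes depended on the scale. In CPM the highest healthy library held 1.34 times the lowest for miR-216a and 2.65 times for miR-216b, whereas in TPM these were 2.93 and 1.34 times.

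The make-up of the cluster within a library does not depend on scaling. miR-216b made up 71.8% ± 6.6 (SD, n = 4) of the cluster reads in healthy nodes, miR-217 23.6% ± 4.58 and miR-216a 4.68% ± 2.12. In DLBCL the shares were 80.6% ± 14.2 (SD, n = 6), 15.0% ± 11.2 and 4.43% ± 3.24. In 4 of the 6 DLBCL libraries the share of miR-217 lay below the healthy range of 20.02% to 30.3%. It took 11.4% of the cluster reads in DLBCL1 (95% Wilson interval 9.93 to 13.2), 11.3% in DLBCL2 (9.34 to 13.6), 5.91% in DLBCL3 (3.94 to 8.79) and 3.62% in DLBCL5 (3.11 to 4.21). DLBCL4 with 27.1% (26.5 to 27.7) was inside that range, and DLBCL6 with 30.5% (28.0 to 33.0) was not distinguishable from its upper end. The intervals take reads as independent and leave out differences between dogs and between preparations. PCR copies of a molecule are counted as separate reads, so even the counting error can be larger than they show.

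**Figure D4:**
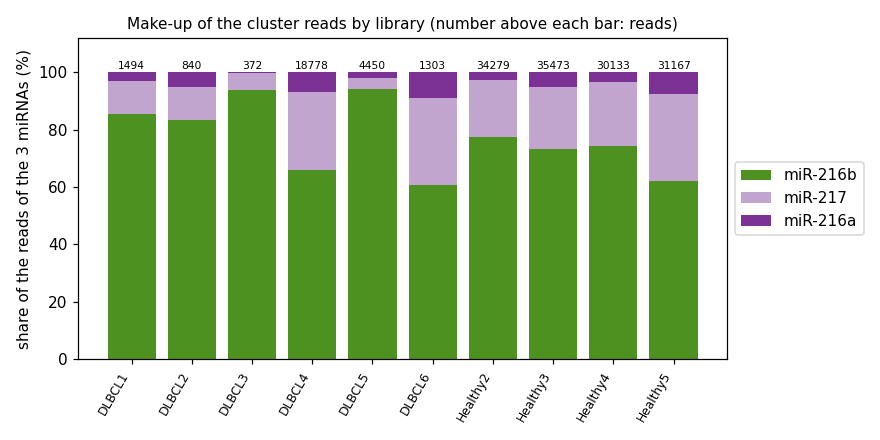
Share of miR-216b, miR-217 and miR-216a in the reads of the 3 miRNAs in each library, in percent, with the number of reads above each bar. miR-216b takes 60.6% to 94.2% in DLBCL and 62.2% to 77.4% in healthy libraries, and DLBCL4 and DLBCL6 resemble Healthy5 in make-up although DLBCL6 has 1303 reads and DLBCL4 18778.

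The ratio of miR-216b to miR-217 reads was 3.86 in Healthy2, 3.35 in Healthy3, 3.36 in Healthy4 and 2.05 in Healthy5. In DLBCL it was 7.46 in DLBCL1, 7.35 in DLBCL2, 15.5 in DLBCL3 and 26.0 in DLBCL5, but 2.43 in DLBCL4 and 1.99 in DLBCL6. The 4 high values are those of the higher Q30 side, a property whose part in the ratio was not tested. The mean log2 ratio was 2.78 ± 1.45 (SD, n = 6) for DLBCL, against 1.62 ± 0.40 (SD, n = 4) for the healthy dogs, a difference of 1.16 (two-sided exact permutation test, p = 0.152, adjusted over 3 pairs p = 0.457). Within the lower Q30 side the difference was -0.48. For miR-216a to miR-217 the difference was 0.53 (exact permutation p = 0.381, adjusted p = 0.571). With a pseudocount of 5 reads in place of 0.5 it was 0.85 (exact permutation p = 0.0381, adjusted p = 0.114). Without DLBCL3, where miR-216a had 1 read, it was 0.93 (exact permutation p = 0.0159, adjusted p = 0.0476). For miR-216a to miR-216b the difference was -0.64 (exact permutation p = 0.6, adjusted p = 0.6), -0.25 with a pseudocount of 5 reads, and 1.05 within the lower Q30 side. With all 10 libraries, none of the 3 differences passed the adjusted threshold under either pseudocount.

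The miRNAs whose pattern was most like that of the cluster were ranked by Pearson's r with the mean log2 CPM of the 3 members over the 10 libraries, which share the difference between groups. Each member had an r of 0.93 to 0.97 with the mean of the other pair. Once the group means were removed, that r was 0.92 for miR-216a, 0.81 for miR-216b and 0.93 for miR-217. Of the other miRNAs tested, with the group means kept, miR-26a came first (r = 0.95), at 12836 to 23486 CPM in DLBCL and 25384 to 28128 CPM in healthy nodes. It was followed by miR-181a (0.90), miR-125b (0.86), miR-196b (0.86) and miR-146a (0.84). miR-26a had a small log2 fold change of -0.55 (adjusted p = 0.211 from edgeR), and of these 5 only miR-146a was called (-1.46, adjusted p = 0.0397 from edgeR). miR-196b, a miRNA of the HOX clusters, had 1.46 CPM in DLBCL3, 79.7 in DLBCL4 and 82.5 to 115 CPM in healthy nodes. It differed from the cluster in DLBCL6, where it had 64.7 CPM, close to DLBCL4.

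After removal of the group means, the most alike were miR-26a (r = 0.87), miR-223 (0.85), miR-26b (0.81), miR-6516 (0.81) and miR-145 (0.80), over the same 10 libraries. For each of these 5, DLBCL4 held the most and DLBCL3 the least of the DLBCL libraries. The cluster had the same extremes, so this sharing came with the way the 5 were picked. The values of r rest largely on DLBCL3 and DLBCL4. miR-223, a miRNA of neutrophils and other myeloid cells, had 88.3 CPM in DLBCL4, 3.95 to 36.4 in the other DLBCL libraries and 16.9 to 38.6 in healthy nodes. miR-145, a miRNA of smooth muscle and stroma, had 1205 CPM in DLBCL4 and 85.0 in DLBCL3. No other tested miRNA of the list of stroma and vessels given below was highest in DLBCL4 among the DLBCL libraries. Of that list, miR-126, miR-199, miR-214 and miR-218 were, like miR-145, lowest in DLBCL3 among the DLBCL libraries. Their r after removal of the group means was 0.51, 0.44, 0.23 and 0.40. By contrast, miR-143 was lowest in DLBCL4, at 15648 CPM, with an r of 0.02.

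miRNAs known from other cells that a node could hold were listed beside the cluster. Of the other pancreas miRNAs, miR-375 of the islets had 0.741 CPM in DLBCL4 and 0.273 to 1.09 CPM in DLBCL1, DLBCL2, DLBCL5 and DLBCL6. DLBCL3 stood apart with 72.6 CPM, and the healthy nodes had 1.02 to 7.46 CPM. miR-148a, abundant in acinar cells and in many other cells, had a log2 fold change of -1.58 (adjusted p = 0.0806 from edgeR) and took 29.4% of the miRNA reads in DLBCL4, and miR-7 had one of 1.55 (adjusted p = 0.109 from edgeR). miR-802 was not analysed here. The 3 listed summed to 93431 to 577180.0 CPM in DLBCL and 468303 to 1460270.0 CPM in healthy nodes, values that can exceed 1000000 because the TMM-adjusted library sizes of Healthy2 and Healthy4 were smaller than their totals. The median log2 fold change of the list was 1.55.

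The epithelial list summed to 793 to 3021 CPM in DLBCL, most of it miR-192, and to 621 to 786 CPM in healthy nodes. Of its 10 miRNAs 6 were tested, 1 was called higher (miR-192) and 0 lower, with a median log2 fold change of 0.79. Of all miRNAs tested, 3.64% were called higher and 2.02% lower. Of its defining members, miR-200c had 8.93 to 19.7 CPM in healthy nodes and 10.5 in DLBCL4. It had 10.3 to 15.8 CPM in DLBCL1, DLBCL2, DLBCL5 and DLBCL6, and 107.6 in DLBCL3. miR-141 had 1.54 to 7.30 CPM in healthy nodes and 3.42 in DLBCL4, and miR-203 had 5.94 to 11.6 and 7.69 CPM. miR-200b and miR-429 had 0 reads in each healthy library, and miR-200a and miR-205 at most 0.21 CPM there. In DLBCL4, miR-200a and miR-200b had 0 reads and miR-429 and miR-205 at most 0.0706 CPM. The remaining members of the list, miR-192, miR-194 and miR-215, had 1291, 318 and 14.8 CPM in DLBCL4. In healthy nodes they had 546 to 637, 46.6 to 164 and 7.62 to 16.0 CPM. The liver miRNA miR-122 had 0.257 to 2.28 CPM in healthy nodes and 0.753 to 11.1 in DLBCL.

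The red blood cell miRNAs miR-451, miR-144 and miR-486 summed to 5171 CPM in DLBCL4, the lowest DLBCL value, to at most 35566 CPM in the other DLBCL libraries and to 808 to 1070 CPM in healthy nodes. The sums did not overlap between the groups, and the share of all miRNAs that lay apart with DLBCL higher was not counted. Of the 3, miR-451 and miR-486 were called higher (3.64% of all miRNAs tested) and 0 lower, and miR-144 had a log2 fold change of 2.72 (adjusted p = 0.139 from edgeR). The median of the list was 4.53. Of the 6 lymphocyte miRNAs, 2 were called lower (miR-150 and miR-146a) and 0 higher, where 2.02% of all miRNAs tested were called lower. Their median was -1.11, and they summed to 13179 to 28433 CPM in DLBCL and 22929 to 41179 CPM in healthy nodes. Of the 7 miRNAs of stroma and vessels, 6 were tested and 0 called, with a median of -0.52. They summed to 19095 CPM in DLBCL4, the lowest DLBCL value, to at most 71058 in DLBCL, and to 27147 to 55728 CPM in healthy nodes. Most of each sum was miR-143, with 15648 CPM in DLBCL4. Among the DLBCL libraries, miR-126, miR-145, miR-199, miR-214 and miR-218 were each lowest in DLBCL3 and not in DLBCL4. The muscle list (3 of 5 tested, 0 called, median 0.95) summed to 675 to 3230 and 607 to 769 CPM. The myeloid list held miR-223 alone, which had a log2 fold change of 0.09 (adjusted p = 0.948 from edgeR). The part of these cells in the values of the cluster was not tested.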

How the data were processed

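The authors trimmed and filtered the reads, mapped them with Bowtie 0.12.9, set aside reads matching repeats or other small RNAs, and counted mature miRNAs of miRBase with miRDeep2. The submitters' processing notes name CanFam3.1 and DESeq2 1.12.0. The deposited read counts carry no normalization, and the deposited TPM values are the counts scaled to 1000000 reads per library (largest difference 4.55e-05). All counts were fitted with edgeR 4.0.16 in R 4.3.3 (TMM, default filter by group, quasi-likelihood test, Benjamini-Hochberg over 247 of 320 miRNAs). log2 CPM used a prior count of 2 and log2 ratios a pseudocount of 0.5. DESeq2 1.42.0, limma 3.58.1 and other scalings, filters and covariates were alternatives. The use of the groups' overlap on other scales, with its permutation tests, was added after seeing the data. Exact permutation tests used scipy 1.17.1 (two-sided, 2 times the smaller tail). The fit was tested on simulated counts. Libraries of a group were checked for duplication (smallest chi-squared per degree of freedom 2115). Each library is a different dog, and the shared numbers in the names do not pair dogs. The members, the lists and the rule for miRNAs named (members, lists, and the 5 most alike by each measure) were chosen with earlier results of these data known. Sequences, and with them miRNAs of a shared seed, were not analysed here.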

Additional observations from a re-analysis of the deposited data

How the results depend on the processing

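All alternatives kept the negative sign of the 3 log2 fold changes. The calls gained were, for miR-216b, with at least 10 reads in every library (-3.06, adjusted p = 0.0487, with 7 of 189 miRNAs called lower), and, for miR-216b and miR-217, with DESeq2, its Cook's distance filter on or off (-2.88 and -3.15), and with limma on log2(TPM + 1) (-3.10 and -4.02). limma-voom with quality weights called miR-216a (-3.997), miR-216b (-3.80) and miR-217 (-4.72). Without each library in turn, the log2 fold change ranged from -4.36 to -2.29 for miR-216a, from -3.55 to -2.58 for miR-216b and from -5.36 to -2.88 for miR-217, with calls only without DLBCL4. With the replicate number as a block, which does not pair the dogs (correlations of deviations from -0.33 to 0.26 over 4 shared numbers), they were -4.23, -3.53 and -5.40 with adjusted p of 0.18, 0.159 and 0.0709 from edgeR, and 1 miRNA of all was called.

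Over all miRNAs, edgeR called 14 (9 higher, 5 lower). The count was 8 (3 higher, 5 lower) with DESeq2's size factors, 23 (22 and 1) with the library total, 7 with mapped reads as library size (5 and 2), 44 with DESeq2 (32 and 12), 56 with that filter off, 46 with limma-voom, 7 with the Q30 covariate and 46 within the lower Q30 side. It ranged from 1 without Healthy4 to 23 without DLBCL4.

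Within the lower Q30 side the log2 ratio differences reversed to -0.48 for miR-216b to miR-217 and to 1.05 for miR-216a to miR-216b, where 2 libraries against 4 cannot reach a p under 0.05. Without each library in turn the 3 differences ranged from 0.78 to 1.52 (miR-216b to miR-217), from -1.02 to -0.00154 (miR-216a to miR-216b) and from 0.29 to 0.93 (miR-216a to miR-217). With a pseudocount of 5 reads the differences were 1.10, -0.25 and 0.85, none with an adjusted p under 0.05. The causes were not tested. The value of miR-216a in DLBCL3 rests on 1 read.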
